A study of Mus musculus with 4 samples.

Results

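Cytosolic ribosomal protein genes encode the protein parts of the ribosomes that translate nuclear messenger RNA. They were taken as the spots of the deposited array table that had a value on all 4 arrays and a gene symbol of the Rpl, Rps, Rplp or Rpsa pattern, with kinase genes of the Rps6k family left out. This gave 120 spots for 71 genes, of 17767 spots and 11791 genes in all. The large subunit had 45 genes and the small subunit 26. Of 72 genes on the array that fit the pattern, Rpl3l had no complete spot.

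The tissue was E12.5 telencephalon, from which the cerebral hemispheres form. The groups were 152F7 embryos and wild-type embryos, both on the FVB background. 152F7 is a single transgenic mouse line that carries, on top of the mouse genome, a yeast artificial chromosome holding human chromosome 21 sequence with the kinase gene DYRK1A. Each genotype was 1 pool of RNA, so no test between genotypes was possible, and the SD given below is over 4 technical arrays. Both pools were hybridised together on every array, 2 arrays with 152F7 in Cy5 and wild type in Cy3, and 2 with the dyes exchanged. The SD over the 4 arrays thus includes the difference between dye orientations as well as that between replicates. How many embryos were pooled, and of which sex, the labels do not say.

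Which genotype is the numerator of the deposited log ratios is not settled. Over the spots complete on all arrays, arrays of opposite dye orientation correlated at -0.661 to -0.596 (Pearson, across spots). By rank the same pairs of arrays gave -0.19 to -0.11 (Spearman). Over named genes, Xist and Eif2s3y included, they correlated at 0.038 to 0.086 by Pearson and at -0.10 to -0.057 by Spearman. The sign thus differed between the measures, and the part of these 2 genes in the Pearson values was not tested. Between the first and second spots of 4352 genes, with Xist left out, the Pearson correlation was 0.42 for the mean of the 4 arrays and 0.097 for the difference between dye orientations. The mean thus repeated better between spots, and values were read without a change of sign, as a log2 ratio of a numerator pool over a denominator pool, without saying which of them came from 152F7 embryos. The turned reading changes the sign of arrays with wild type in Cy5, so that the ratio would be 152F7 over wild type. It stands beside many comparisons of the members, their groups and the other lists, but not beside all, such as those by promoter motif. The sex markers Xist and Eif2s3y kept 1 sign on all 4 arrays as deposited. Xist had -3.53 and -3.38 with 152F7 in Cy5 and -3.33 and -3.27 with wild type in Cy5. Turned, both markers would have opposite signs in the 2 orientations, though every array holds the same pools. Turned values and calls were therefore not read as an effect of 152F7. A turned value is the difference between dye orientations divided by 2, so it holds any effect of the dyes.

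A ribosome joins a small subunit, which reads the messenger RNA, to a large subunit, which forms peptide bonds and releases the new chain through a tunnel. Vertebrate ribosomal protein messenger RNAs begin with a pyrimidine-rich stretch, the terminal oligopyrimidine tract, through which the mTOR pathway sets their translation. Dividing progenitors of the embryonic brain make many ribosomes. These genes have many processed pseudogenes, so a probe may bind more than 1 transcript, and in pooled tissue fewer cells of a type cannot be told apart from less RNA per cell.

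Members share features of their promoters. RefSeq windows from 250 bases before to 50 bases after the annotated start (GRCm38.p6) were at hand for 57 members, in 68 windows. A run of at least 8 C or T bases touching the 10 bases on either side of the start stood in 41.2% of these windows, against 13.8% of 12226 windows of the other measured genes. For runs of at least 5 bases the shares were 67.6% and 43.6%. The lines below run from 20 bases before to 10 bases after the start, with the run in capitals, for members with a long run and for Rpl26, the lowest member, which has a short one.
Rplp2, chr7:141447631-141447660, plus strand: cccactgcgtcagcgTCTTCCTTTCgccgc
Rpl38, chr11:114668560-114668589, plus strand: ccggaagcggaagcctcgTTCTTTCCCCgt
Rps18, chr17:33955656-33955685, minus strand: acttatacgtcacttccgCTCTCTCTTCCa
Rps6, chr4:86857358-86857387, minus strand: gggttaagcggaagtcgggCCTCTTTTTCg
Rpl4, chr9:64173367-64173396, plus strand: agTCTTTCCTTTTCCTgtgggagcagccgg
Rps27l, chr9:66946066-66946095, plus strand: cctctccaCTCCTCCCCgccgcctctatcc
Rpl26, chr11:68901546-68901575, plus strand: gagatctcgcggcaaCTTacagaaccggaa

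Motifs were searched on both strands of the same windows. The palindrome CTCGCGAG was found in 11.8% of the members' windows, against 1.74% of the windows of other measured genes. CCGGAAG, a core of ETS family sites, was found in 38.2% against 16.6%, and AAGATGGC, a YY1 site, in 10.3% against 4.25%. Shares lay closer for GGGCGG, the GC box (58.8% against 62.2%), TATAAA, the TATA box (8.82% against 7.60%), CACGTG, an E-box (11.8% against 9.65%), and ATTGG, the inverted CCAAT box (32.4% against 38.1%). The next lines give the 120 bases before the start, with these motifs in capitals, for the lowest and the highest member and for a member of each direction between dye orientations.
Rpl26, chr11:68901446-68901565, plus strand: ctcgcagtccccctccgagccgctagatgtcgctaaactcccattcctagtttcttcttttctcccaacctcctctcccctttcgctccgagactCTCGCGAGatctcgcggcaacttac
Rplp2, chr7:141447531-141447650, plus strand: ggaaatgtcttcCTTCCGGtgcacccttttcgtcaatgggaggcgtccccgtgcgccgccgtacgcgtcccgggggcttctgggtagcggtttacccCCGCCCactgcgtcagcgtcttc
Rpl12, chr2:32961592-32961711, plus strand: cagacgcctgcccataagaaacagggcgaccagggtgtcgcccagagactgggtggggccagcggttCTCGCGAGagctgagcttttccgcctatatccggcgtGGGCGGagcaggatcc
Rps21, chr2:180257259-180257378, plus strand: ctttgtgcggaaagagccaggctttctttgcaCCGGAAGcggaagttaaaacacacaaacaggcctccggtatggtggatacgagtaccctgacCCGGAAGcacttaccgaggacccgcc
A match is a match of letters, and no binding was measured.

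The 71 genes lay close to 0, with a median slightly below that of all genes. Gene means ran from -0.15 to 0.11. Their median was -0.021 ± 0.012 (SD of the 4 array medians), against 0.0021 over all genes, and the SD over genes was 0.049, against 0.086. With 152F7 in Cy5 the median of the members was -0.017 and -0.002, and with wild type in Cy5 it was -0.025 and -0.030. Set against all genes on the same array it was lower by 0.039, 0.017, 0.013 and 0.020 in that order, thus below on every array. Of the members 49 (69.0%) had a mean below 0, against 48.5% of all genes. In the turned reading the median was 0.014 for the members and 0.015 for all genes.

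A gene was called where its value had 1 sign on all 4 arrays and its mean was at least 0.1 in size, which is 1.07-fold. By this rule 0 of 71 members were higher in the numerator pool, against 6.08% of all genes, and 2 (2.82%) were lower, against 3.45%. Calls in either direction made up 9.53% of all genes. The share of lower members is thus near the background. No member reached 1.5-fold, and only 10 of all 11791 genes did. In 58 members (81.7%, against 75.5% of all genes) the SD over the arrays, which includes the orientation difference, exceeded the size of the mean. At any size, 9 members were below 0 on all arrays (12.7%, against 10.1%) and 2 were above 0 on all arrays (2.82%, against 12.8%). In the turned reading 8 members were called higher, where 9.07% of all genes were, and 7 lower, where 4.63% were.

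**Figure D1:**
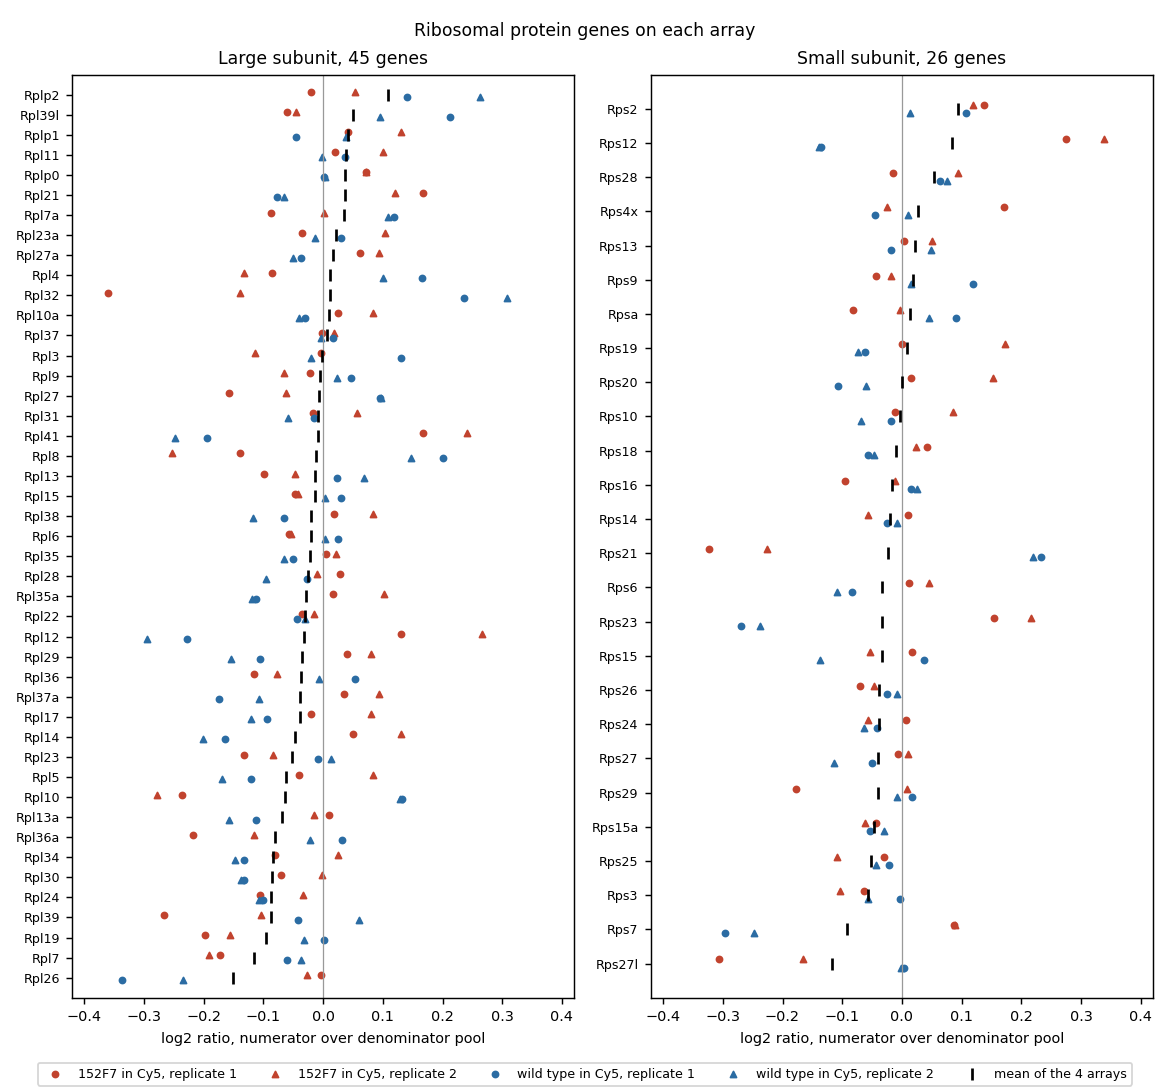
Log2 ratios of the numerator over the denominator pool (x axis) for the 45 large and 26 small subunit genes (rows, highest mean on top), with 152F7 in Cy5 in red, wild type in Cy5 in blue and the mean of the 4 arrays as a black bar. Means stay between -0.15 and 0.11, while red and blue marks stand apart in many genes.

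Rpl7 and Rpl26, both of the large subunit, were the called members. Rpl7 had -0.172 and -0.191 with 152F7 in Cy5 and -0.061 and -0.037 with wild type in Cy5, a mean of -0.12 ± 0.078 (SD, n = 4 arrays). All values were below 0, and those with 152F7 in Cy5 were the lower ones. Its 3 spots, annotated to the same transcript, had means of -0.20, -0.13 and -0.016. Rpl26, a protein at the rim of the tunnel exit that also binds the p53 messenger RNA in human cells, had -0.003 and -0.027 with 152F7 in Cy5 and -0.337 and -0.235 with wild type in Cy5. Its mean of -0.15 ± 0.16 came from 1 spot and almost wholly from 1 dye orientation. In the turned reading Rpl7 was at -0.066 and Rpl26 at 0.14.

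The other members of the lowest 5 were Rps27l, Rpl19 and Rps7. Rps27l, a close copy of Rps27 that p53 induces, had -0.306 and -0.166 with 152F7 in Cy5 and 0.004 and -0.001 with wild type in Cy5, a mean of -0.12 ± 0.15. It missed the rule on 1 array, which stood just above 0, and turned it was at -0.12. Rpl19, also at the rim of the tunnel exit, had -0.199 and -0.157 with 152F7 in Cy5 and 0.001 and -0.032 with wild type in Cy5, a mean of -0.096 ± 0.096 and a turned value of -0.081. Rps7, which binds the p53 ligase MDM2 in human cells, had 0.088 and 0.089 with 152F7 in Cy5 and -0.297 and -0.247 with wild type in Cy5. Its orientations stood on opposite sides of 0, and its mean of -0.092 ± 0.21 is smaller than its SD, which includes that difference. Its replicates lay 0.001 apart with 152F7 in Cy5 and 0.050 apart with wild type in Cy5. Turned, it was at 0.18 and called higher.

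The highest 5 were Rplp2, Rps2, Rps12, Rps28 and Rpl39l, and none passed the rule. Rplp2, an acidic protein of the stalk that recruits elongation factors, had -0.020 and 0.053 with 152F7 in Cy5 and 0.140 and 0.263 with wild type in Cy5, a mean of 0.11 ± 0.12. One of its arrays lay below 0. Rps2, at the entry of the messenger RNA channel, had 0.138 and 0.120 with 152F7 in Cy5 and 0.108 and 0.013 with wild type in Cy5. All were above 0, and its mean of 0.094 ± 0.056 fell just short of the size asked for. Rps12, of the beak of the small subunit, had 0.275 and 0.338 with 152F7 in Cy5 and -0.136 and -0.139 with wild type in Cy5. The mean of 0.084 ± 0.26 is what is left of opposite values. Rps28, near the exit of the messenger RNA channel, averaged 0.055 ± 0.049 over 4 spots, and Rpl39l, a copy of Rpl39 used in mouse male germ cells, 0.050 ± 0.13. Turned, Rps12 was at 0.22 and called higher, Rps2 was at 0.034, Rps28 at -0.015, Rplp2 at -0.093, and Rpl39l at -0.10 and called lower.

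The medians of the subunits differed by less than the spread between arrays. They were -0.021 for the large and -0.022 for the small subunit, a difference of 0.0011. The SD of the differences taken on each of the 4 arrays was 0.010. By array the difference was -0.019 and -0.0053 with 152F7 in Cy5 and -0.0035 and 0.0065 with wild type in Cy5, so its sign did not hold. In the large subunit 32 of 45 genes (71.1%) were below 0, and in the small subunit 17 of 26 (65.4%). Turned, the medians were 0.017 for the large and 0.0098 for the small subunit.

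**Figure D2:**
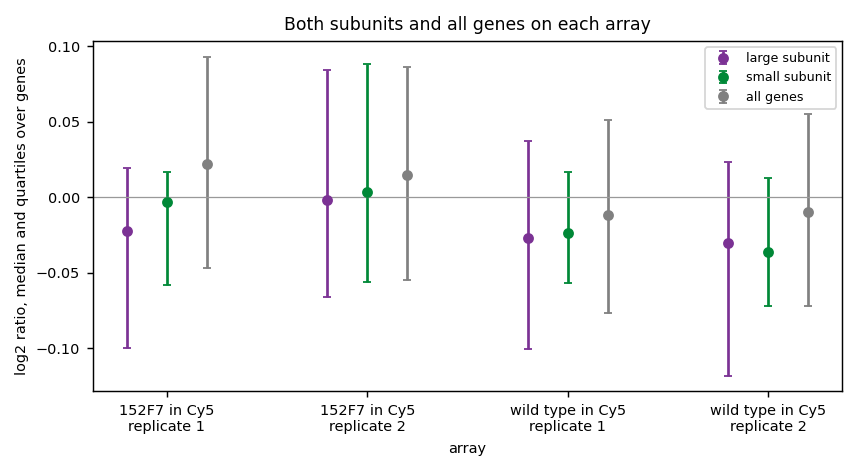
Median log2 ratio over genes (points, y axis) with quartiles (bars) for the large subunit, the small subunit and all genes on each of the 4 arrays (x axis). Both subunits lie below all genes on each array, and on the second array with wild type in Cy5 the small subunit is the lower of both.

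Smaller groups within the ribosome were put together after the values were seen and are described only. All 3 stalk proteins, Rplp0, Rplp1 and Rplp2, had means above 0, as had 51.5% of all genes, and their median was 0.041, or 0.035 turned, with Rplp2 below 0 in that reading. Rplp0, the base of the stalk, had 0.072 on both arrays with 152F7 in Cy5 and 0.001 and 0.003 with wild type in Cy5, a mean of 0.037 ± 0.040. Of its 3 spots 1 had a mean of 0.13 and the others -0.009 and -0.013. In the particle that holds the 5S RNA and can bind the p53 ligase, Rpl5 had -0.062 ± 0.11 and Rpl11 0.039 ± 0.044. Of 3 proteins that line the exit tunnel, Rpl4, Rpl17 and Rpl39, 2 were below 0, and of 5 at its rim 4 were, with Rpl26 called, where 48.5% of all genes and 69.0% of the members lay below 0. The turned medians were -0.097 for the lining and 0.029 for the rim.

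Of 20 genes mutated in Diamond-Blackfan anaemia, a human failure of red cell formation, 18 were measured. Their median was -0.025, 14 were below 0, a share to be read against the 69.0% of all members, and 1, Rpl26, was called. Turned, the median was 0.032, of the opposite sign. Rps19, a founding gene of that disease, had 0.000 and 0.172 with 152F7 in Cy5 and -0.062 and -0.074 with wild type in Cy5, a mean of 0.0091 ± 0.11. Its complete spots went opposite ways between orientations, with differences of -0.21 and 0.52. Members with other known roles were also near 0. Rps14, lost in the human 5q- syndrome, had -0.020 ± 0.029. Rps6, the target of S6 kinases under mTOR, had -0.034 ± 0.074, Rpsa, also known as the laminin receptor, 0.013 ± 0.074, and Rpl38, needed for translation of Hox messenger RNAs in mice, -0.020 ± 0.089. Members often used as reference genes in expression assays, 6 in all, had means from -0.096 to 0.037, with Rpl13a at -0.069 ± 0.079 and Rps18 at -0.0095 ± 0.050. In 2 of the 6 the dye orientations did not overlap and differed by at least 0.2, as in 17.7% of all genes. Both differences were below 0, the larger at -0.52, and the turned median of the 6 was -0.023.

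Differences between dye orientations were wider than the means. The mean with 152F7 in Cy5, less that with wild type in Cy5, ran from -0.52 to 0.46 over the members. Its median size was 0.11, against 0.096 over all genes. The median size of the mean was 0.035 in the members and 0.039 over all genes. A difference of the 2 orientations has 2 times the scale of their mean, so its size is not directly comparable with that of the mean. The signed difference had a median of 0.028 in the members and 0.029 in all genes. Orientations that did not overlap and differed by at least 0.2 were found in 17 members (23.9%), against 17.7% of all genes. In 9 of them the difference was above 0 (12.7%, against 11.2%) and in 8 below 0 (11.3%, against 6.45%). The gap between replicates of an orientation had a median of 0.064 with 152F7 in Cy5 and 0.033 with wild type in Cy5. This difference is 2 times the log2 ratio of the turned reading. Across the members, arrays of 1 orientation correlated at 0.788 to 0.888 and opposite arrays at -0.585 to -0.533 (Pearson, across genes, all sharing both pools).

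Rpl12, Rps12, Rps23, Rpl41 and Rps7 had the largest differences above 0. Rpl12, at the base of the stalk, had 0.131 and 0.266 with 152F7 in Cy5 and -0.228 and -0.295 with wild type in Cy5, a difference of 0.46. Rps23, of the decoding centre, had 0.154 and 0.217 with 152F7 in Cy5 and -0.269 and -0.237 with wild type in Cy5, a difference of 0.44. Rpl41, a very short peptide between the subunits, had 0.168 and 0.241 with 152F7 in Cy5 and -0.195 and -0.249 with wild type in Cy5. In these genes the orientations were far apart, and the means of 4 arrays were -0.032 for Rpl12, -0.034 for Rps23 and -0.0088 for Rpl41. The Rps12 difference of 0.44 was uneven between its spots, at 0.77 and 0.11.

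Rpl32, Rps21, Rpl10, Rpl8 and Rpl4 had the largest differences below 0. Rpl32 had -0.361 and -0.140 with 152F7 in Cy5 and 0.236 and 0.308 with wild type in Cy5, a difference of -0.52. Its replicates with 152F7 in Cy5 lay 0.22 apart. Rps21 had -0.323 and -0.226 with 152F7 in Cy5 and 0.233 and 0.220 with wild type in Cy5, and its spots differed by -0.36, -0.61 and -0.53. Rpl10, an X-linked protein near the site of peptide bond formation, had -0.237 and -0.278 with 152F7 in Cy5 and 0.132 and 0.129 with wild type in Cy5. Both of its spots moved the same way, by -0.46 and -0.31. Rpl8, of the same region, differed by -0.37, and Rpl4 by -0.24.

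**Figure D3:**
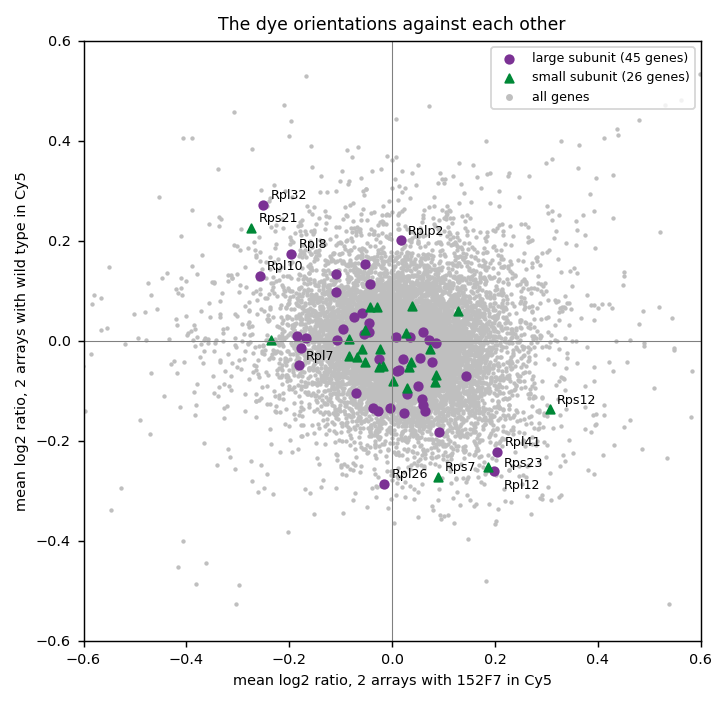
Mean log2 ratio of the 2 arrays with 152F7 in Cy5 (x axis) against that of the 2 arrays with wild type in Cy5 (y axis) for large subunit genes (circles), small subunit genes (triangles) and all genes (grey, 29 of them outside the axes). Members reach into the upper left (Rpl32, Rps21) and the lower right (Rpl12, Rps12), while Rpl26 and Rplp2 stand away from 0 on the y axis alone.

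Spots of a gene often disagreed. Of 37 members with 2 to 4 spots, 17 had spot means of 1 sign, and the range of spot means within a gene had a median of 0.058, above the median size of the mean. Rpl22, needed for T cell development in mice, had a spot at -0.152 and -0.046 with 152F7 in Cy5 and -0.172 and -0.145 with wild type in Cy5. Its other spot, annotated to the same transcript, had 0.082 and 0.015 with 152F7 in Cy5 and 0.083 and 0.085 with wild type in Cy5. The probes thus opposed each other on every array, and the gene's SD of 0.012 around -0.031 does not show it. The spots of Rps3, at the entry of the messenger RNA channel, had means of -0.14 and 0.026. Orientation differences had 1 sign in 16 of the 37 genes, and those of Rps24 ran from -0.34 to 0.42. Between first and second spots the correlation over these 37 genes was 0.18 for means and 0.032 for orientation differences.

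**Figure D4:**
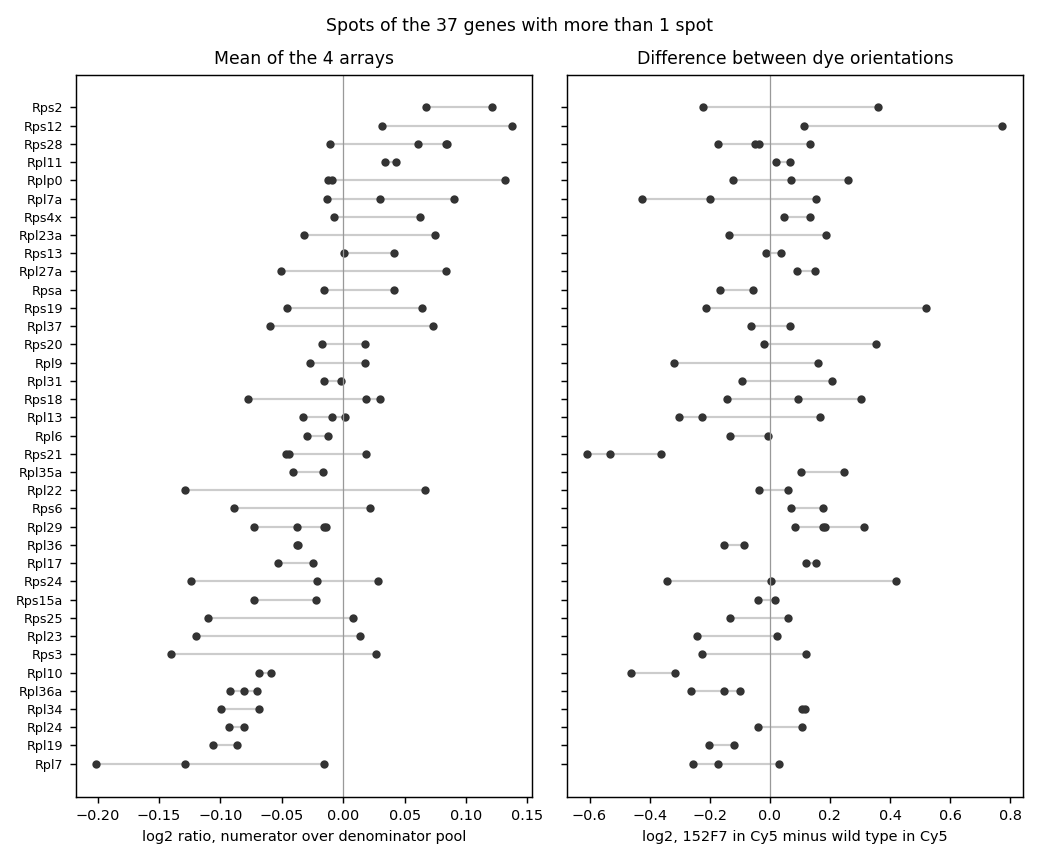
Spots (points, joined within a gene) of the 37 members with more than 1 spot (rows, by gene mean), as the mean log2 ratio of the 4 arrays (left) and the difference of 152F7 in Cy5 minus wild type in Cy5 (right). Spots of Rpl22, Rps3 and Rps24 span 0 on the left, and those of Rps21, Rpl10 and Rpl36a all lie below 0 on the right.

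By RefSeq (GRCm38.p6) 4 members are X-linked. Rpl39 had a mean of -0.088 ± 0.14, Rpl36a -0.081 ± 0.11, Rpl10 -0.064 ± 0.22 and Rps4x 0.028 ± 0.098. Their median was -0.072, against -0.021 in the 67 other members and -0.0026 in 385 X-linked genes with Xist left out. On arrays with 152F7 in Cy5 it was -0.23 and -0.11, and with wild type in Cy5 -0.0048 and 0.036. The low values thus lie in 1 orientation, and the turned median was -0.092. The pools also differed in sex markers, with Xist, the RNA of the silenced X, at -3.38 ± 0.11 and the Y-linked Eif2s3y at 2.10 ± 0.33. Each kept its sign in both dye orientations, Xist at -3.53 and -3.38 with 152F7 in Cy5 and -3.33 and -3.27 with wild type in Cy5, and Eif2s3y at 2.39 and 2.37 with 152F7 in Cy5 and 1.77 and 1.87 with wild type in Cy5. The part of sex in the members' values was not tested.

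The 27 members with a run of at least 8 pyrimidines had a median of -0.026, and the 30 without one -0.019. The 6 members with an E-box had a median of -0.061 and the 51 without one -0.021, and the 6 with a TATA box 0.0028 and the 51 without one -0.022. For the other motifs the medians were -0.021 with and -0.030 without CCGGAAG, -0.040 and -0.018 for AAGATGGC, -0.015 and -0.034 for the GC box, and -0.024 and -0.021 for the inverted CCAAT box. The 7 members with CTCGCGAG had a median of 0.0091, and the 50 without it -0.023. The median differences between orientations were 0.12 with the palindrome and 0.012 without it. The sign of the median depended on the length searched, an alternative added after seeing the data. With a T required before and an A after the palindrome, a form of 10 letters found in 10.3% of the members' windows against 0.908%, the 6 members with it had a median of -0.011 and the 51 without it -0.022.

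Other genes of translation were read by the same rule, and the background shares given above hold for them too. Of 11 elongation factor genes 0 were called, with a median of 0.0094. Of 32 initiation factor genes 1 was higher, the scaffold Eif4g3 at 0.18 ± 0.057, and 1 lower, Eif3k of the eIF3 complex at -0.17 ± 0.17, with a median of -0.0089. The Eif3k mean came from 1 spot and mostly from 1 dye orientation. Its values were -0.047 and -0.016 with 152F7 in Cy5 and -0.263 and -0.361 with wild type in Cy5. Of 47 ribosome biogenesis genes 1 was higher and 3 lower, with a median of -0.013. The lower ones were the endonuclease gene Nob1 at -0.21 ± 0.13, and Dkc1 at -0.12 ± 0.091 and Nop10 at -0.12 ± 0.075, which belong to the particles that modify ribosomal RNA. The higher one was Bop1, a large subunit assembly factor, at 0.10 ± 0.069.

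Of 12 genes of the RNA polymerase I machinery, which transcribes ribosomal RNA, 1 was lower, its subunit gene Polr1b at -0.18 ± 0.10. Among 18 growth control genes 3 were higher and 1 lower, with a median of 0.0079. Tsc2, a brake on mTOR, had 0.246 and 0.317 with 152F7 in Cy5 and 0.155 and 0.165 with wild type in Cy5, a mean of 0.22 ± 0.076. Its arrays were all above 0, and turned it was at 0.061. Larp1, which binds the terminal oligopyrimidine tract, had 0.13 ± 0.045, and Rptor, a subunit of mTOR complex 1, 0.10 ± 0.031. Max, the partner of MYC, was lower at -0.14 ± 0.12. In the turned reading the calls were 1 higher and 1 lower for elongation, 1 and 6 for initiation, 2 and 3 for biogenesis, 1 and 1 for polymerase I, and 1 and 3 for growth control. The turned medians of these lists were 0.030, -0.023, 0.0043, 0.052 and 0.0031 in the same order.

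**Figure D5:**
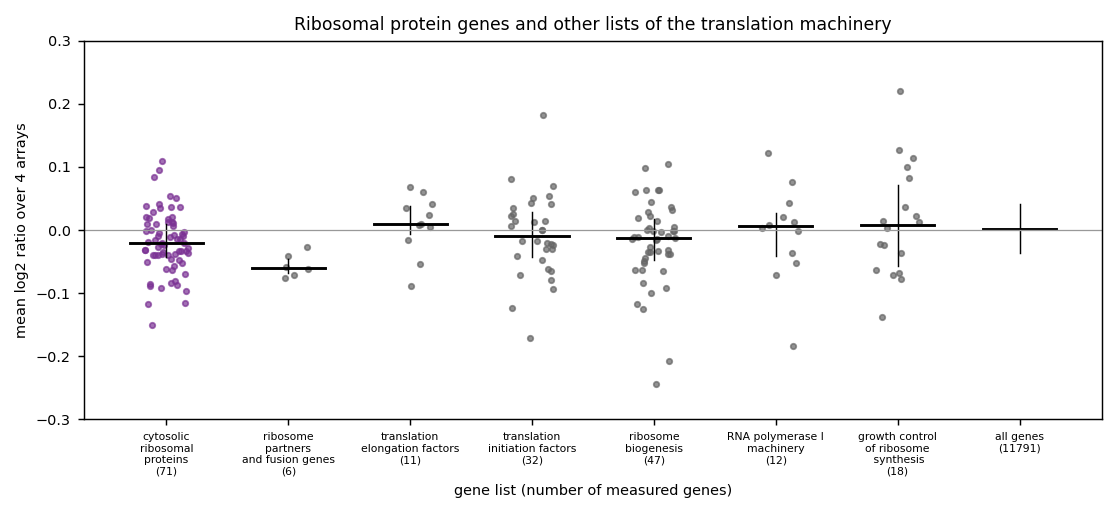
Mean log2 ratio over the 4 arrays (y axis) of each measured gene (points) of the ribosomal protein set and 6 other lists, with medians (thick bars) and quartiles (thin lines); all genes have median and quartiles only. Medians lie between -0.060 and 0.0094, with the 6 ribosome partners and fusion genes lowest.

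Most markers of other cells had larger ratios than the members. All 4 lens markers (median 0.96), all 4 mesenchyme markers (0.31) and both measured myeloid markers of 3 (0.65) were higher in the numerator pool. So were 3 of 4 measured red cell markers (0.21) and 1 of 2 endothelial markers (0.19). The red cell marker not called, Hbb-y, had a mean of 0.0105, within the range of the members. The endothelial marker not called, Cdh5, had -0.261 and 0.623 on the 2 arrays with 152F7 in Cy5. Of the telencephalon markers 5 of 6 had complete spots, with a median of 0.082 and a lowest mean of 0.034. Of these 1 was called higher, Lhx2 at 0.28 ± 0.12. When turned, 0 lens, mesenchyme and myeloid markers were called, and their medians were -0.015, -0.0061 and 0.0094. The turned medians were -0.028 for red cells, with 1 marker lower, 0.0010 for endothelium and 0.044 for telencephalon, with 0 called in both. The table gives ratios and no levels, so which markers are near 0 in a pool is not known here. The part of other cells in the members' values was not tested.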

How the data were processed

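The deposited table holds a log ratio per spot and array for 44290 spots of an Agilent mouse array with 60-base probes. The deposited values were read as log2, since log base, scanner software, background correction, normalization and direction are all not stated in any source used here. Per the labels' protocols, 1 ug of total RNA was amplified and labelled. Array medians lie between -0.007 and 0.007, and 53.7% to 65.3% of spots have a value. No intensities were used, so the number of arrays sets the precision and nothing is known of signal over background.

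Spots were named through the platform annotation, in which 32042 have 1 symbol, 47 several (not used) and 12201 none. Spots were averaged per gene, and all 71 member symbols match RefSeq. Members and lists were chosen with earlier results of these data known. The rule named members past the calling rule, the 5 highest and 5 lowest means, the 5 largest orientation differences each way, symbols ending in l or x, fixed members (Rps27a was not analysed here), the 3 genes whose spots differ most, and up to 4 called genes of each other list. Rpl36a, Rpl39, Rpl17, Rplp1, Rps24, and the uncalled genes of other lists were named after their values were seen, as were the promoter motifs. Tools were Python 3.11.15, pandas 2.3.3, numpy 2.4.6 and matplotlib 3.10.9.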

Additional observations from a re-analysis of the deposited data

Results flagged for a closer look

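In 15 of the 31 named members both arrays of 1 dye orientation lay above 0 and both arrays of the other below 0, so that the same pair of pools gave opposite signs. Of these, 10 were named for the size of their orientation difference, and among the 21 named otherwise 5 did so (23.8%). Over all 71 members it was 31 (43.7%), against 30.8% of all genes. The differences, 152F7 in Cy5 minus wild type in Cy5, were not tested, and a group of 2 arrays is too small to look for a single array that stands apart. The difference was above 0 for Rpl12 (0.46), Rps12 (0.444), Rps23 (0.439), Rpl41 (0.426), Rps7 (0.361), Rpl38 (0.142), Rps6 (0.124) and Rps18 (0.0847). It was below 0 for Rpl32 (-0.522), Rps21 (-0.5), Rpl10 (-0.387), Rpl8 (-0.37), Rpl4 (-0.242), Rpl39l (-0.207) and Rpsa (-0.11).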

How the results depend on the processing

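The median of the ribosomal protein genes stayed below 0 in every setting tried other than the turned reading, where it was 0.014, and lay between -0.032 and -0.016 with 1 array left out. The large minus small difference was 0.016 with wild type in Cy5 alone and ran from -0.0054 to 0.0050 with 1 array left out. Higher members numbered 8 in the turned reading (all genes 9.07%), 6 with 152F7 in Cy5 alone (19.8%), 8 with wild type in Cy5 alone (11.3%), 1 for natural logs (9.02%) and 1 at a size of 0.05 (11.1%). In the same order lower members numbered 7 (4.63%), 12 (11.4%), 16 (15.4%), 4 (6.02%) and 6 (7.98%). Lower members numbered 1 with the spot nearest to 0 (all genes 2.68%), and 0 at a size of 0.2 (0.48%) or 1.5-fold (0.0085%). They numbered 0 without Rpl7 and Rpl26 (3.44%), a setting chosen after seeing the data. With 1 array left out there were 0 to 1 higher members (Rplp2 or Rps2) and 2 to 5 lower ones. Of all genes 6.77% to 7.16% were then higher and 3.85% to 4.77% lower. Lower members numbered 5 when replicate 2 of 152F7 in Cy5 was dropped (all genes 4.72%). They numbered 4 when replicate 1 of wild type in Cy5 was (3.85%). Rules over fewer arrays are easier to pass by construction; other causes were not tested. The median orientation difference was 0.040 for natural logs, 0.012 without the 25% noisiest spots, -0.0017 with arrays centred on all genes, and 0.0023 (replicate 2 of 152F7 in Cy5 dropped) to 0.039 with 1 array left out. In the turned reading 17 of 31 named genes changed sign, among them Rpl26, a called one, to 0.14, and with the spot nearest to 0 it was 10 of 31. No paired analysis was possible because no result comes from a test: all arrays hold the same 2 pools.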

Other observations

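Genes close to the set that its symbol pattern leaves out were also near 0. The 6 measured ones had means from -0.076 to -0.027, and 0 were called. Fau, which encodes a ubiquitin-like protein fused to a small subunit protein, had -0.188 and -0.143 with 152F7 in Cy5 and 0.127 and 0.098 with wild type in Cy5. Rpl22l1, a copy of Rpl22, had -0.294 and -0.169 with 152F7 in Cy5 and 0.090 and 0.139 with wild type in Cy5. Both stood on opposite sides of 0 in the orientations. Rpl36al had 0.093 and 0.188 with 152F7 in Cy5 and -0.218 and -0.227 with wild type in Cy5, the other way round. Its X-linked counterpart Rpl36a had -0.218 and -0.117 with 152F7 in Cy5 and 0.032 and -0.023 with wild type in Cy5. Rpl7l1, a relative of Rpl7, had -0.062 ± 0.049 and Rps19bp1, named for binding the Rps19 protein, -0.071 ± 0.033, both below 0 on all arrays.

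Of 8 member spots that were not complete, that of Rpl3l, a copy of Rpl3 found mainly in muscle, had 0.002 and 0.049 with wild type in Cy5 and no value with 152F7 in Cy5. Eif5a, an elongation factor gene, had an orientation difference of -0.57, wider than that of any member.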
